A study of Homo sapiens with 6 samples.

Results

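Interferon-stimulated antiviral genes are read here in HCT116, an established human colorectal carcinoma line, whose mRNA was sequenced in 3 ZsGreen-positive and 3 ZsGreen-negative libraries. The set holds 51 named genes, effectors and RNA sensors of the interferon response, found by gene symbol among the 26255 symbols of each table. Per the series title the cells were transduced with the degron of ornithine decarboxylase and serve as models of cancer stem cells. A protein that carries this degron is degraded by the proteasome with no need of ubiquitin, and a fluorescent protein joined to it builds up in cells where degradation is slow. The ZsGreen-positive libraries come from cells described as positive for ZsGreen fluorescence and the ZsGreen-negative libraries from cells described as negative for it. The labels give no treatment, time, clone or interferon exposure for either group. Nothing says that the 3 libraries of a group came from separate cultures, so a p-value here speaks of the spread of these libraries alone, and that spread may be technical. The groups and any batch along the same split cannot be told apart.

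Interferons of type I and type III are secreted by cells that detect viral or misplaced nucleic acid, and they act on receptors coupled to the kinases JAK1 and TYK2. Transcription factors that include STAT2 and IRF9 then bind interferon-stimulated response elements, called ISRE, in the promoters of target genes. Those targets include the sensors themselves and effectors that block virus entry, copying, translation and release. Epithelial tumour cells can express many of them without an added virus.

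Most of these genes were lower in ZsGreen-positive than in ZsGreen-negative cells, and none of those tested was called higher. Levels are in FPKM, the number of fragments divided by transcript length in kilobases and by library size in units of 1000000. How library size was scaled is not given in the sources used here. As a value per length, FPKM allows levels of different genes to be compared. A gene was tested where its mean over the 6 libraries was at least 1 FPKM, with limma on log2(FPKM + 1), and called where the Benjamini-Hochberg adjusted p over all 12213 genes tested was below 0.05. Of the 51 genes, 41 were tested, and of these 37 were lower, 0 were higher and 4 (IFITM2, MX1, TRIM14 and TRIM22) did not pass. The list was chosen with earlier results of these data known, so its counts describe the list and do not test it. Of all genes tested 30.0% were called lower and 29.4% higher, the shares to set beside the counts by role below. At least 2-fold lower values were found for 31 members, against 8.34% of all genes tested, and at least 4-fold lower values for 13, against 1.05%. The members GBP2, CMPK2 and EPSTI1 passed the filter only through the ZsGreen-negative group and so had to be lower to be tested. Among the 38 members with a ZsGreen-positive mean of at least 1 FPKM, 34 were lower, where 29.2% of all genes so chosen were. The median log2 fold change, ZsGreen-positive minus ZsGreen-negative, was -1.53 over the 41 tested members and -1.52 over those 38, against 0.0040 over all genes tested. For genes near the filter this scale gives too small a log2 fold change. In bulk libraries, fewer cells that express a gene and less RNA of it per cell cannot be told apart.

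**Figure D1:**
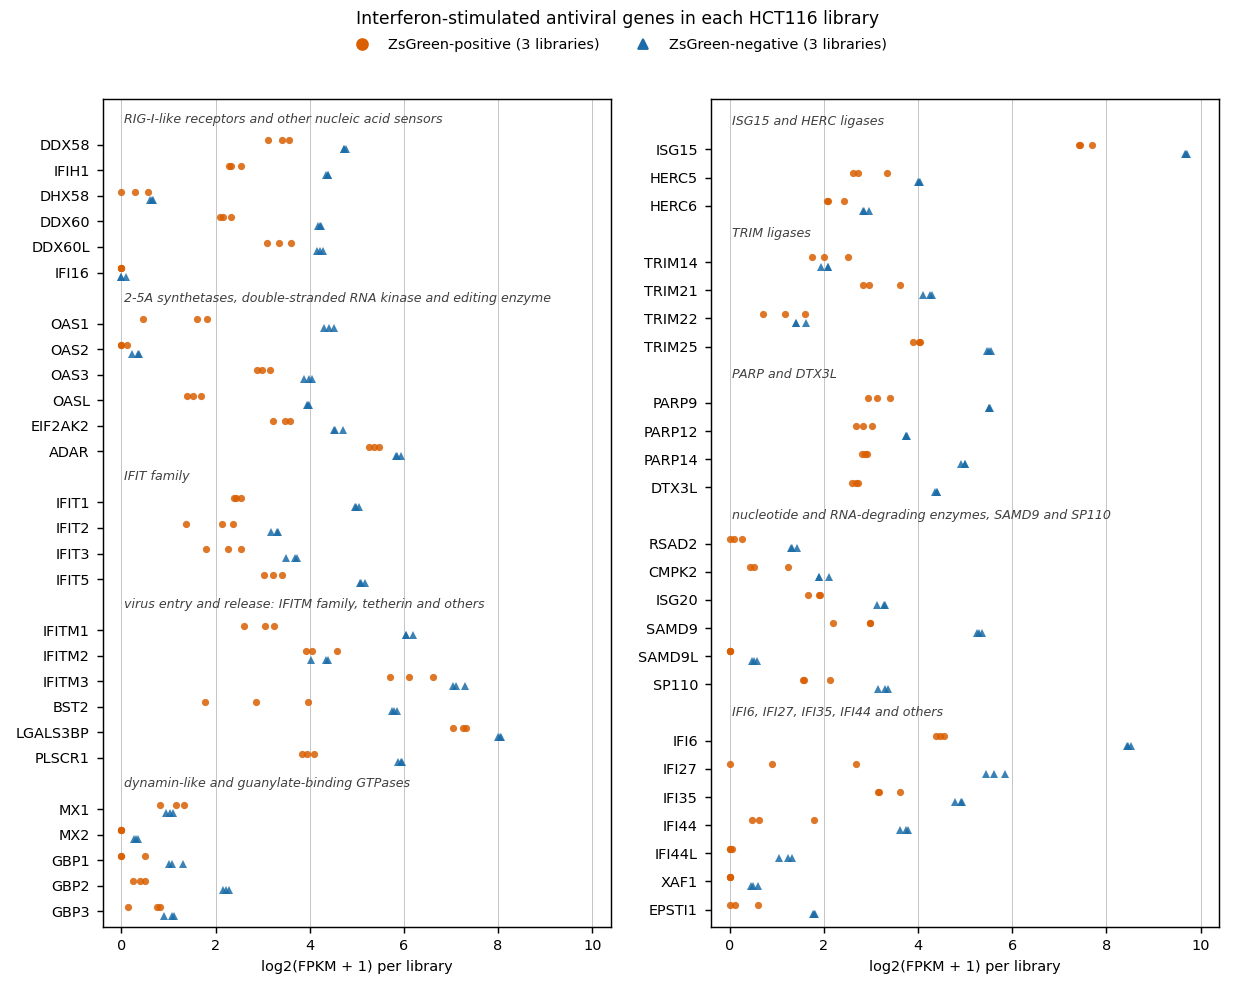
Level of each of the 51 genes in each library, as log2(FPKM + 1) on the horizontal axis, grouped by role, with ZsGreen-positive libraries as circles above ZsGreen-negative libraries as triangles. The groups do not overlap for 46 genes, all lower in the ZsGreen-positive libraries, and they overlap for IFI16, IFITM2, MX1, TRIM14 and TRIM22.

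The 3 ZsGreen-positive values lay below the 3 ZsGreen-negative values for 46 of the 51 genes, as for 29.7% of all genes above 0 in a library. Summed over the set, the members held 733.62, 610.709 and 656.867 FPKM in ZsGreen-positive replicates 1 to 3 and 2458.47, 2419.79 and 2422.28 FPKM in ZsGreen-negative replicates 1 to 3. The sum was thus lower in every ZsGreen-positive library, and ISG15 took the largest part of it in all 6 libraries. The order of levels below ISG15 differed between the groups. In ZsGreen-negative cells IFI6, LGALS3BP, IFITM3 and IFITM1 followed it. In ZsGreen-positive cells LGALS3BP, IFITM3, ADAR and IFI6 did, and IFITM1 stood in place 18, against place 5 in ZsGreen-negative cells. The share of IFI6 in the sum was 2.87%, 3.70% and 3.04% in the ZsGreen-positive libraries and 14.9%, 14.4% and 14.2% in the ZsGreen-negative libraries. The share of LGALS3BP was 21.5%, 21.5% and 23.0% in the ZsGreen-positive libraries and 10.9%, 10.8% and 10.6% in the ZsGreen-negative libraries.

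The depth estimated from the smallest step of the values was 12.1 to 13.7 times 1000000 fragments per ZsGreen-positive library and 9.41 to 9.56 times 1000000 per ZsGreen-negative library. Genes listed at 0 numbered 10314 to 11989 in the ZsGreen-positive and 8985 to 9162 in the ZsGreen-negative libraries. ZsGreen-positive replicate 1 had 69 of 297 low genes at a single estimated fragment, and the ZsGreen-negative libraries 103 of 421 to 131 of 445. ZsGreen-positive replicates 2 and 3 stood apart, with 6 of 114 and 7 of 72, so their depth estimates are uncertain. Their part in the results was not tested beyond leaving them out. With replicate 1 alone as the ZsGreen-positive group the members' median log2 fold change was -1.68, against 0.0082 over all genes tested. Of 10 epithelial markers 9 reached a mean of 1 FPKM, with VIL1 near 0. The epithelial markers summed to 3320 to 3788 FPKM in ZsGreen-positive and 4741 to 4807 FPKM in ZsGreen-negative libraries. Most of that sum was KRT8, KRT18 and KRT19, and single markers differed in direction. EPCAM and CDX2 were higher in every ZsGreen-positive library than in any ZsGreen-negative one. KRT8, KRT18, CLDN7, CDH1 and CLDN4 were lower without overlap, CDH1 and CLDN4 by the largest factors. For KRT19, KRT20 and VIL1 the groups overlapped. Markers of other cells were low. Of the leukocyte markers only LYZ and of the fibroblast markers only COL1A1 reached a mean of 1 FPKM. The 11 leukocyte markers summed to 0 to 1.53 FPKM in ZsGreen-positive and 1.82 to 2.50 FPKM in ZsGreen-negative libraries, with CD3D, CD3E, MS4A1 and TYROBP at 0 in all 6. The 7 fibroblast markers summed to 0.731 to 1.19 FPKM in ZsGreen-positive and 2.35 to 2.54 FPKM in ZsGreen-negative libraries, with COL1A2, DCN and LUM at 0 in all 6. The 5 endothelial markers summed to 0.171 to 0.310 FPKM in ZsGreen-positive and 0.115 to 0.166 FPKM in ZsGreen-negative libraries. The scaling between libraries moves the balance of all genes. Of all called genes 50.5% were lower with the deposited values, 37.9% with each library rescaled to a sum of 1000000 and 22.6% with small RNA genes left out of that sum. The median of all genes tested then moved to 0.14 and 0.37, and relative to it the members' median was -1.35 and -1.53, against -1.53 as deposited.

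The IFI genes, named only for their induction by interferon, include the 2 largest differences of the set. IFI6, a small membrane protein that restricts flaviviruses, had 21.0, 22.6 and 20.0 FPKM in the ZsGreen-positive libraries and 365, 349 and 344 FPKM in the ZsGreen-negative libraries. The 3 libraries of each group lay close together and far from the other group. IFI6 averaged 21.2 ± 1.33 FPKM in ZsGreen-positive and 353 ± 11.0 FPKM in ZsGreen-negative cells (SD, n = 3 each), a log2 fold change of -4.00 with an SE of 0.0643 (limma adjusted p = 3.79e-08). Its promoter is shown because the ISRE core, GAAANNGAAA on either strand, occurs in it more than once. The sequence runs from 250 bases before to 50 after the RefSeq start on the minus strand (chr1:27672143-27672442, GRCh38.p14), with the ISRE cores in capitals.
IFI6: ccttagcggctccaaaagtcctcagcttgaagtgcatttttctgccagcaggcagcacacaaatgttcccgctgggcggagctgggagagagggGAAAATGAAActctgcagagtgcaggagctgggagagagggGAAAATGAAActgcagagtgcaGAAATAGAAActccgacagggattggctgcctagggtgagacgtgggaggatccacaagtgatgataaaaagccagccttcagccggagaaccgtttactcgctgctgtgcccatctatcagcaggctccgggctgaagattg
The cores begin 156, 115 and 93 bases before the start. A stretch of 29 bases that holds the first of them occurs again 41 bases further on, with the second.

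IFI27, a small membrane protein of mitochondria, had 5.40, 0.865 and 0 FPKM in the ZsGreen-positive libraries and 56.8, 42.5 and 47.8 FPKM in the ZsGreen-negative libraries. It was low in every ZsGreen-positive library but spread widely among them, and ZsGreen-positive replicate 3 is listed at 0. Its log2 fold change was -4.44 with an SE of 0.60 (limma adjusted p = 0.000548), and with a pseudocount of 0.1 in place of 1 it was -5.91. IFI44, a cytoplasmic protein with reported antiviral activity, averaged 1.13 ± 1.15 FPKM in ZsGreen-positive and 12.2 ± 0.778 FPKM in ZsGreen-negative cells (log2 fold change -2.75). IFI35, a binding partner of NMI, had 31.8% of its ZsGreen-negative level in ZsGreen-positive cells. EPSTI1 was listed at 0.0777, 0 and 0.511 FPKM in the ZsGreen-positive libraries and at 2.39, 2.49 and 2.51 FPKM in the ZsGreen-negative libraries. With pseudocounts of 0.1 and 5 its log2 fold change was -3.53 and -0.52, against -1.56 with a pseudocount of 1. The remaining IFI44L and XAF1, a binder of the apoptosis inhibitor XIAP, were under the filter. IFI44L was at 0.0403, 0 and 0 FPKM in the ZsGreen-positive libraries and 1.08, 1.49 and 1.37 FPKM in the ZsGreen-negative libraries, and XAF1 was at 0 in all ZsGreen-positive libraries and at 0.409, 0.370 and 0.508 FPKM in the ZsGreen-negative libraries. All 7 genes of this group lay lower without overlap between the groups, as did 29.7% of all genes above 0 in a library. The 5 tested were all called lower, EPSTI1 having been tested only through its ZsGreen-negative level.

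**Figure D2:**
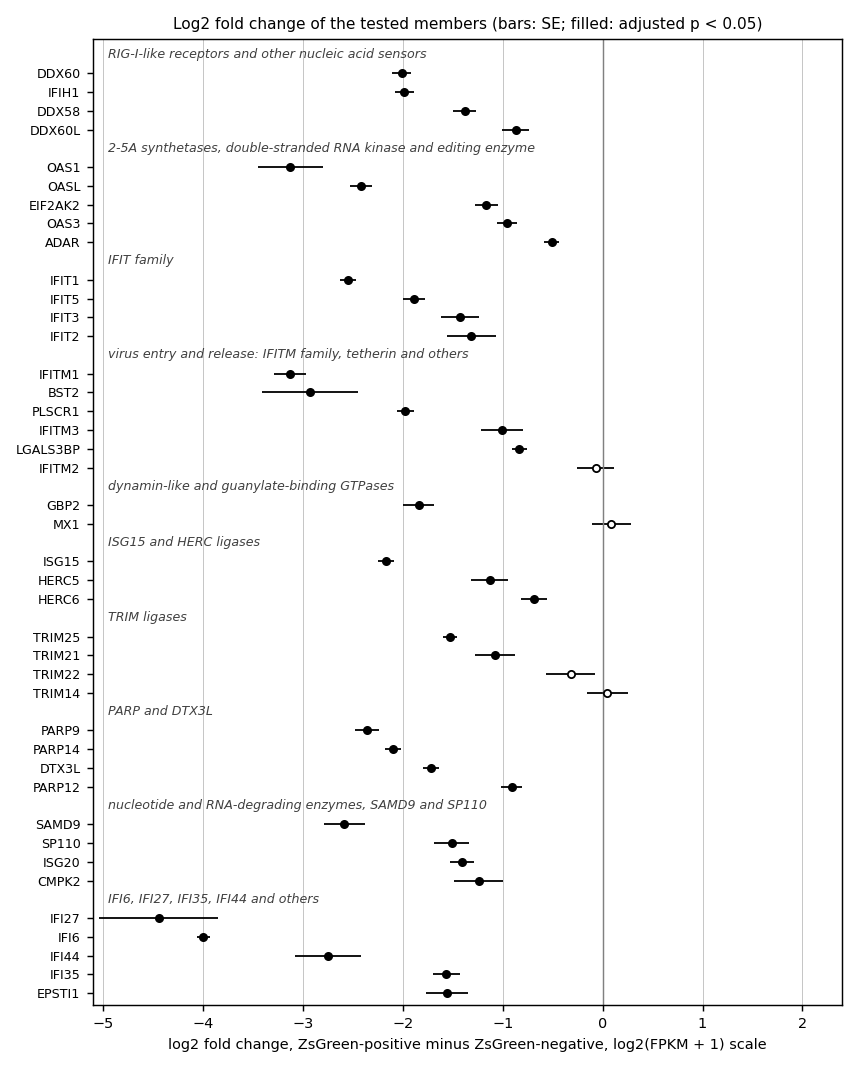
Log2 fold change, ZsGreen-positive minus ZsGreen-negative on the log2(FPKM + 1) scale, of the 41 tested members, grouped by role, with bars for the SE and filled points for an adjusted p below 0.05. IFI27 (-4.44) and IFI6 (-4.00) lie farthest to the left, and the 4 open points IFITM2, MX1, TRIM14 and TRIM22 lie near 0.

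Cytoplasmic sensors of RNA were lower in ZsGreen-positive cells, with all 4 tested genes of the group called lower. DDX60, a helicase reported to aid RIG-I signalling, had 3.48, 3.28 and 4.03 FPKM in the ZsGreen-positive libraries and 17.7, 17.0 and 17.8 FPKM in the ZsGreen-negative libraries. It averaged 3.60 ± 0.391 FPKM in ZsGreen-positive and 17.5 ± 0.454 FPKM in ZsGreen-negative cells (SD, n = 3 each), a log2 fold change of -2.01 with an SE of 0.0971 (limma adjusted p = 4.48e-06). IFIH1, which encodes the sensor of long double-stranded RNA MDA5, had 4.84, 3.90 and 4.04 FPKM in the ZsGreen-positive libraries and 19.3, 20.0 and 20.0 FPKM in the ZsGreen-negative libraries. ZsGreen-positive cells held 21.6% of the ZsGreen-negative IFIH1 level, and the log2 fold change was -1.98 with an SE of 0.0976 (limma adjusted p = 4.8e-06). DDX58, which encodes the RNA-end sensor RIG-I, fell to 9.38 ± 1.56 FPKM in ZsGreen-positive cells, against 25.8 ± 0.532 FPKM in ZsGreen-negative cells. DDX60L, the paralog of DDX60, had 52.7% of its ZsGreen-negative level in ZsGreen-positive cells (log2 fold change -0.87). DHX58, the regulator of these sensors LGP2, was under the filter, at 0.220, 0.483 and 0 FPKM in the ZsGreen-positive libraries and 0.574, 0.604 and 0.514 FPKM in the ZsGreen-negative libraries. The DNA sensor gene IFI16 was listed at 0 in every library except ZsGreen-negative replicate 1, where it had 0.0731 FPKM.

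Enzymes that act on or through double-stranded RNA differed widely in size of change, and the 5 tested were all called lower. OAS1, an oligoadenylate synthetase activated by double-stranded RNA, had 2.50, 2.02 and 0.369 FPKM in the ZsGreen-positive libraries and 18.8, 21.8 and 20.4 FPKM in the ZsGreen-negative libraries. ZsGreen-positive replicate 3 was the lowest by far, and the other ZsGreen-positive libraries too lay well under every ZsGreen-negative one. OAS1 had a log2 fold change of -3.13 with an SE of 0.33 (limma adjusted p = 0.000162). OASL, a relative without synthetase activity that aids RIG-I, had 2.24, 1.63 and 1.87 FPKM in the ZsGreen-positive libraries and 14.5, 14.7 and 14.4 FPKM in the ZsGreen-negative libraries. Its groups were tight, and its log2 fold change was -2.42 with an SE of 0.11 (limma adjusted p = 3.93e-06). EIF2AK2, the kinase PKR that stops translation, had 42.4% of its ZsGreen-negative level in ZsGreen-positive cells, and OAS3 had 48.2%. ADAR, which edits adenosines in double-stranded RNA, averaged 40.3 ± 3.02 FPKM in ZsGreen-positive and 57.8 ± 2.20 FPKM in ZsGreen-negative cells, the smallest called difference of the set at a log2 fold change of -0.51. Rescaled without small RNA genes, ADAR was at -0.08 and did not pass (limma adjusted p = 0.375, range over its alternatives 0.000214 to 0.375). OAS2 was under the filter, at 0.0801, 0 and 0 FPKM in the ZsGreen-positive libraries and 0.284, 0.175 and 0.300 FPKM in the ZsGreen-negative libraries.

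All 4 genes of the IFIT family, whose proteins bind viral RNA and hinder its translation, were called lower. IFIT1 had 4.86, 4.38 and 4.23 FPKM in the ZsGreen-positive libraries and 30.3, 30.8 and 32.1 FPKM in the ZsGreen-negative libraries. It averaged 4.49 ± 0.331 FPKM in ZsGreen-positive and 31.1 ± 0.905 FPKM in ZsGreen-negative cells (SD, n = 3 each), a log2 fold change of -2.55 with an SE of 0.0823 (limma adjusted p = 1.06e-06). The IFIT1 promoter is shown because its ISRE cores lie close together, both on the strand opposite to the gene, where they read TTTCNNTTTC in the plus-strand sequence (chr10:89392373-89392672, GRCh38.p14).
IFIT1: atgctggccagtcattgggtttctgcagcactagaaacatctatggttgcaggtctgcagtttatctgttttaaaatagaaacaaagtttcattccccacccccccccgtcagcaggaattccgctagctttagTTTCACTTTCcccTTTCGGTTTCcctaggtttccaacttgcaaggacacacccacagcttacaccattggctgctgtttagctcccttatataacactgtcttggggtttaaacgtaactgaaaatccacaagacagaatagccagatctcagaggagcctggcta
These cores begin 116 and 103 bases before the start. IFIT5 had 7.14, 9.71 and 8.31 FPKM in the ZsGreen-positive libraries and 35.2, 32.3 and 33.2 FPKM in the ZsGreen-negative libraries, a log2 fold change of -1.89 with an SE of 0.11 (limma adjusted p = 1.01e-05). IFIT2 and IFIT3, partners of IFIT1 in a complex, had smaller differences, with 35.1% and 32.5% of their ZsGreen-negative levels in ZsGreen-positive cells. IFIT2 was uneven among the ZsGreen-positive libraries, at 1.57, 3.38 and 4.14 FPKM, against 8.05, 8.85 and 9.01 FPKM in the ZsGreen-negative libraries.

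Among genes that act on virus entry and release, 5 of 6 were called lower, and the 3 IFITM genes, membrane proteins that hinder fusion of virus and cell, had unlike values. IFITM1 had 7.32, 5.05 and 8.53 FPKM in the ZsGreen-positive libraries and 72.1, 65.0 and 65.1 FPKM in the ZsGreen-negative libraries, a log2 fold change of -3.13 with an SE of 0.16 (limma adjusted p = 5.79e-06). IFITM2 had 15.5, 23.0 and 14.2 FPKM in the ZsGreen-positive libraries and 19.9, 15.3 and 19.4 FPKM in the ZsGreen-negative libraries. Its groups overlapped, with a log2 fold change of -0.07 and an SE of 0.18 (limma adjusted p = 0.764), and rescaling turned it to 0.10 or, without small RNA genes, to 0.35, neither of which passed. IFITM3 averaged 72.2 ± 23.0 FPKM in ZsGreen-positive and 142 ± 13.5 FPKM in ZsGreen-negative cells (log2 fold change -1.01). The IFITM genes are close in sequence, so the reads of one can be counted for another, and single values are uncertain. The IFITM1 promoter is shown because it carries 2 ISRE cores near the start (plus strand, chr11:313790-314089, GRCh38.p14).
IFITM1: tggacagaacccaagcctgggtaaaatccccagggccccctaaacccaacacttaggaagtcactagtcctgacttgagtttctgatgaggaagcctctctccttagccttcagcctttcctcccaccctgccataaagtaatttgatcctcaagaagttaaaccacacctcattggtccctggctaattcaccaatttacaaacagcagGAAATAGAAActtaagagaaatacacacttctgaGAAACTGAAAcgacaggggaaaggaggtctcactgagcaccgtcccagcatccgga
They begin 40 and 6 bases before the start. BST2, the tetherin that holds budding virus to the cell surface, had 14.7, 2.42 and 6.26 FPKM in the ZsGreen-positive libraries and 54.2, 56.7 and 53.0 FPKM in the ZsGreen-negative libraries. Its ZsGreen-positive values were uneven but stayed under every ZsGreen-negative value, with a log2 fold change of -2.93 and an SE of 0.48 (limma adjusted p = 0.00141). PLSCR1, a phospholipid scramblase that restricts virus entry, had 24.3% of its ZsGreen-negative level in ZsGreen-positive cells. LGALS3BP, a secreted glycoprotein, had 158, 131 and 151 FPKM in the ZsGreen-positive libraries and 267, 262 and 256 FPKM in the ZsGreen-negative libraries (log2 fold change -0.83).

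Of the GTPases of the MX and GBP families, GBP2 and MX1 reached the filter, and GBP2 was called lower. GBP2, a guanylate-binding protein, had 0.311, 0.411 and 0.191 FPKM in the ZsGreen-positive libraries and 3.49, 3.85 and 3.66 FPKM in the ZsGreen-negative libraries (log2 fold change -1.84 with an SE of 0.15, limma adjusted p = 5.08e-05). It was tested only through its ZsGreen-negative level, and with pseudocounts of 0.1 and 5 its log2 fold change was -3.26 and -0.71. MX1, a dynamin-like GTPase that traps viral nucleocapsids, had 1.25, 0.761 and 1.52 FPKM in the ZsGreen-positive libraries and 1.04, 0.924 and 1.12 FPKM in the ZsGreen-negative libraries. MX1 was thus low in both groups, which overlapped, and its log2 fold change was 0.09 with an SE of 0.19 (limma adjusted p = 0.717). MX2 was at 0 in all ZsGreen-positive libraries and at 0.201, 0.247 and 0.277 FPKM in the ZsGreen-negative libraries. GBP1 was at 0, 0.411 and 0 FPKM in the ZsGreen-positive libraries and 1.11, 1.03 and 1.48 FPKM in the ZsGreen-negative libraries. GBP3 was at 0.107, 0.773 and 0.696 FPKM in the ZsGreen-positive libraries and 0.881, 1.17 and 1.11 FPKM in the ZsGreen-negative libraries. For MX2, GBP1 and GBP3 each ZsGreen-positive value lay under the lowest ZsGreen-negative one, for GBP3 by a small margin.

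ISG15, a ubiquitin-like protein that is attached to other proteins, was the most abundant member in both groups. It had 206, 170 and 173 FPKM in the ZsGreen-positive libraries and 808, 820 and 840 FPKM in the ZsGreen-negative libraries. The log2 fold change was -2.17 with an SE of 0.0818 (limma adjusted p = 1.78e-06), and ZsGreen-positive cells held 22.2% of the ZsGreen-negative level. The ISG15 promoter is shown for its overlapping ISRE cores, printed as 1 run of capitals (plus strand, chr1:1013247-1013546, GRCh38.p14).
ISG15: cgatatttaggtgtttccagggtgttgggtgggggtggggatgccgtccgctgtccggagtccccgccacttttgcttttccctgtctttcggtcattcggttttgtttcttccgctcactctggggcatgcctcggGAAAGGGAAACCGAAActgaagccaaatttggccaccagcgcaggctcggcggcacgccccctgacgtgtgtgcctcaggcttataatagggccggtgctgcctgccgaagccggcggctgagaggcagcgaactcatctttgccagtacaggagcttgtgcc
They begin 113 and 107 bases before the start. HERC5, the main ligase that attaches ISG15, had 9.09, 5.13 and 5.60 FPKM in the ZsGreen-positive libraries and 14.9, 15.3 and 15.5 FPKM in the ZsGreen-negative libraries, a log2 fold change of -1.13 with an SE of 0.18 (limma adjusted p = 0.0014). HERC6, a related ligase, had 56.7% of its ZsGreen-negative level in ZsGreen-positive cells (log2 fold change -0.68). Rescaled without small RNA genes, HERC6 was at -0.33 and did not pass (limma adjusted p = 0.108, range over its alternatives 0.000924 to 0.108).

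Of 4 TRIM ubiquitin ligases and adaptors, TRIM25 and TRIM21 were called lower, and TRIM14 and TRIM22 did not pass. TRIM25, which activates RIG-I, had 15.1, 15.4 and 13.9 FPKM in the ZsGreen-positive libraries and 44.6, 43.3 and 45.7 FPKM in the ZsGreen-negative libraries, a log2 fold change of -1.53 with an SE of 0.0692 (limma adjusted p = 3.68e-06). TRIM21, a cytosolic antibody receptor, had 6.10, 6.84 and 11.3 FPKM in the ZsGreen-positive libraries and 16.2, 18.1 and 18.8 FPKM in the ZsGreen-negative libraries, a log2 fold change of -1.08 with an SE of 0.20 (limma adjusted p = 0.00262). Both were without overlap between the groups. TRIM14, an adaptor of MAVS signalling, had 3.01, 4.72 and 2.36 FPKM in the ZsGreen-positive libraries and 3.24, 3.28 and 2.85 FPKM in the ZsGreen-negative libraries (log2 fold change 0.05 with an SE of 0.20, limma adjusted p = 0.849). TRIM22, a restriction factor, had 0.631, 2.03 and 1.25 FPKM in the ZsGreen-positive libraries and 2.08, 1.65 and 1.65 FPKM in the ZsGreen-negative libraries (log2 fold change -0.32 with an SE of 0.24, limma adjusted p = 0.292). Their ZsGreen-positive libraries fell on both sides of some ZsGreen-negative values. With replicate 1 alone as the ZsGreen-positive group, the log2 fold change of TRIM22 was -0.77. Without ZsGreen-positive replicate 1 it was at -0.09 and without replicate 2 at -0.54, and neither passed (limma adjusted p = 0.678 and 0.052).

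Genes of ADP-ribosylation were called lower for all 4 members. PARP9 and DTX3L encode partners in a complex of an ADP-ribosyltransferase family protein and a ubiquitin ligase. PARP9 had 7.76, 6.66 and 9.52 FPKM in the ZsGreen-positive libraries and 44.5, 44.9 and 44.4 FPKM in the ZsGreen-negative libraries, a log2 fold change of -2.36 with an SE of 0.12 (limma adjusted p = 5.14e-06). DTX3L averaged 5.38 ± 0.266 FPKM in ZsGreen-positive and 20.0 ± 0.368 FPKM in ZsGreen-negative cells (log2 fold change -1.72). The pair was thus lower on both sides of a shared promoter. The genes run in opposite directions, and their windows overlap by 137 bases, so that the ISRE core shown for DTX3L (plus strand, chr3:122564088-122564387, GRCh38.p14) is also the one in the PARP9 window.
DTX3L: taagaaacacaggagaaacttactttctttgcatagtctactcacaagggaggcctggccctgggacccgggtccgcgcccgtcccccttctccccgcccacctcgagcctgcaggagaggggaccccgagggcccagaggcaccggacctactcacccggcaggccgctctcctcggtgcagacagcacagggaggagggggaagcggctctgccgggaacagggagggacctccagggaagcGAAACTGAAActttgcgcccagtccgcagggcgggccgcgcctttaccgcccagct
It begins 6 bases before the DTX3L start. Because the genes overlap and the treatment of strand in the counting is not given, their values are uncertain. PARP14, a macrodomain protein that modifies other proteins, had 6.34, 5.98 and 6.58 FPKM in the ZsGreen-positive libraries and 28.9, 31.0 and 30.9 FPKM in the ZsGreen-negative libraries, a log2 fold change of -2.10 with an SE of 0.0772 (limma adjusted p = 1.7e-06). PARP12, an RNA-binding ADP-ribosyltransferase, had 49.7% of its ZsGreen-negative level in ZsGreen-positive cells.

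The last group holds enzymes of nucleotides and RNA, SAMD9 and its relative, and SP110. Its 4 tested members were called lower, and 1 of them, CMPK2, was tested only through its ZsGreen-negative level. SAMD9, which restricts poxviruses, had 3.60, 6.85 and 6.87 FPKM in the ZsGreen-positive libraries and 37.4, 39.9 and 38.2 FPKM in the ZsGreen-negative libraries, a log2 fold change of -2.59 with an SE of 0.20 (limma adjusted p = 3.98e-05). SP110, a nuclear body protein, had 3.39, 2.01 and 1.93 FPKM in the ZsGreen-positive libraries and 9.23, 8.78 and 7.94 FPKM in the ZsGreen-negative libraries, a log2 fold change of -1.51 with an SE of 0.18 (limma adjusted p = 0.000265). ISG20, an exonuclease that degrades RNA, had 30.5% of its ZsGreen-negative level in ZsGreen-positive cells. CMPK2, a mitochondrial nucleotide kinase, had 1.38, 0.342 and 0.427 FPKM in the ZsGreen-positive libraries and 2.74, 2.71 and 3.35 FPKM in the ZsGreen-negative libraries. Its neighbour RSAD2, the enzyme viperin that makes a chain-ending nucleotide, was under the filter at 0.0690, 0.199 and 0 FPKM in the ZsGreen-positive libraries and 1.46, 1.50 and 1.71 FPKM in the ZsGreen-negative libraries. SAMD9L was at 0.0124, 0 and 0 FPKM in the ZsGreen-positive libraries and 0.424, 0.507 and 0.391 FPKM in the ZsGreen-negative libraries. With no filter on low values, 44 of the 51 genes were called lower, the 37 above and 7 of the 10 under the filter, where 22.8% of all genes were. Of those under the filter only DHX58, GBP3 and IFI16 then did not pass. At these depths a 2-kilobase transcript at 1 FPKM gives 24.1 to 27.4 estimated fragments in ZsGreen-positive and 18.8 to 19.1 in ZsGreen-negative libraries. The numbers for ZsGreen-positive replicates 2 and 3 are uncertain, as their depth estimates are. Values near 0 rest on few fragments.

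**Figure D3:**
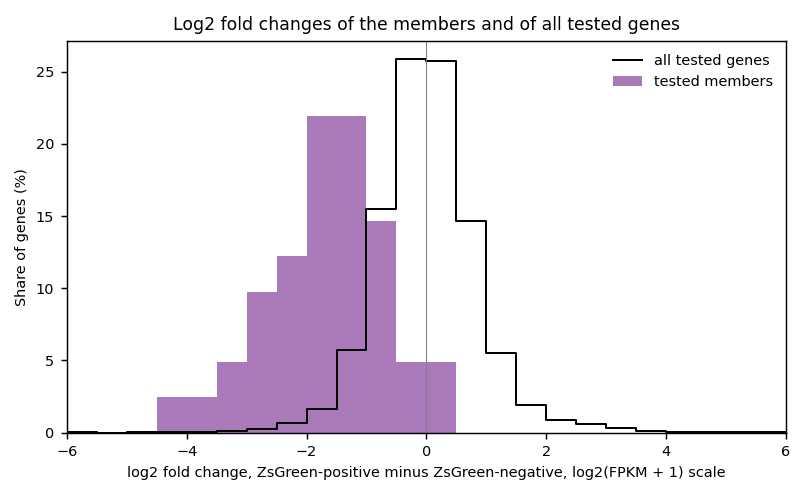
Share of genes (vertical axis, %) by log2 fold change, ZsGreen-positive minus ZsGreen-negative (horizontal axis, bins of 0.5), for the 41 tested members (filled) and all 12213 tested genes (line), with 41 tested genes beyond the axis not drawn. The members centre at a median of -1.53 and all tested genes at 0.0040.

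The members varied more among ZsGreen-positive than among ZsGreen-negative libraries, as did the tested genes as a whole. The SD of log2(FPKM + 1) over 3 libraries had a median of 0.23 in ZsGreen-positive and 0.0602 in ZsGreen-negative cells over the tested members, against 0.19 and 0.0683 over all tested genes. It was larger in ZsGreen-positive cells for 41 of the 41 tested members, and the share of all tested genes for which it was larger was not computed. The highest of the ZsGreen-positive libraries was replicate 1 for 17 members, replicate 2 for 9 and replicate 3 for 15, so no single library carried the highest values throughout. The members' median difference from the ZsGreen-negative mean was -1.68, -1.68 and -1.61 in ZsGreen-positive replicates 1 to 3.

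Many members share promoter letters and lie side by side in the genome. Of the 51 genes, 43 matched a promoter window in RefSeq (GRCh38.p14, 250 bases before to 50 after the start), with DDX58 under its present symbol RIGI. An ISRE core, GAAANNGAAA on either strand, was in a window of 32 of the 43 (74.4%), against 1195 of 27305 genes (4.38%). The 32 held 54 distinct core sites, of which 44 lay within 150 bases upstream of a start, and 16 members had 2 or more in a window. Overlapping matches count as separate sites, and BST2, TRIM21 and ISG15 reach 2 only in this way. A GAS core, TTCNNNGAA, which reads the same on both strands and is named for the interferon gamma response, was in a window of 12 members (27.9%), against 2560 of all genes (9.38%). Of the GAS copies, 6 overlapped an ISRE core. The 28 tested members with an ISRE core had a median log2 fold change of -1.80 (range -4.44 to 0.09, 26 lower), and the 8 tested members with none had a median of -1.45 (range -3.13 to -0.51, 8 lower). Both sets reached from small to large differences, and OAS1, at -3.13, had no ISRE core in its window. MX1, with no called difference, carried a core in 2 of its windows, of which the one with a match upstream is shown for contrast (plus strand, chr21:41431800-41432099, GRCh38.p14).
MX1: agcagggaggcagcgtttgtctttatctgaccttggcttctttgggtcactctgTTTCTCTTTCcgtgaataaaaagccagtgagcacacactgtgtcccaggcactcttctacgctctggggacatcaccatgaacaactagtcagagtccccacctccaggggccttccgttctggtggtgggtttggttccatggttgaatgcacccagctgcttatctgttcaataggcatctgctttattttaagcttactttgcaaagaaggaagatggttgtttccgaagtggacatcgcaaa
The MX1 core begins 196 bases before this start, on the opposite strand. These matches describe the letters of the windows only. The files were made on hg19, and no coordinate of that build was used.

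By the RefSeq order of protein-coding genes, 27 of the 51 members lie next to another member, in 12 runs. Called and uncalled genes stood side by side in the run of IFITM2, IFITM1 and IFITM3, with log2 fold changes of -0.07, -3.13 and -1.01. In the pair of DDX60 and DDX60L the values were -2.01 and -0.87, and in OAS1 and OAS3 they were -3.13 and -0.96. IFIT1 and IFIT5, which are neighbours, were at -2.55 and -1.89, and the neighbouring pair IFIT2 and IFIT3 at -1.31 and -1.43. IFIT, OAS, GBP and SAMD9 relatives resemble one another. IFI16, EIF2AK2, TRIM14, TRIM25, SP110 and the IFIT genes overlap other genes, and CMPK2 and RSAD2 overlap each other. How reads were split between such genes can shift single values.

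The wider interferon pathway, a list of 88 further genes, held genes of both directions. Of 59 tested, 29 were lower, 6 were higher (TYK2, IRF3, MAVS, PTPN6, TRIM28 and APOBEC3C) and 24 did not pass, with a median log2 fold change of -0.35. Of all genes tested 30.0% were lower and 29.4% higher. The first 5 of the higher genes are named after their values were seen. In the order given, the log2 fold changes of the 6 were 0.40, 0.60, 0.42, 0.59, 0.90 and 1.88. Rescaled without small RNA genes, 21 pathway genes were lower and 16 higher, where 13.5% of all genes were lower and 46.4% higher. No interferon gene reached the filter, and 8 of 21 were at 0 in every library. IFNE, an epithelial interferon, had 0, 0.621 and 2.31 FPKM in the ZsGreen-positive libraries and 0.721, 0.682 and 1.04 FPKM in the ZsGreen-negative libraries, and IFNA14 had 0, 1.20 and 0 FPKM in the ZsGreen-positive libraries and 0, 0.164 and 0 FPKM in the ZsGreen-negative libraries.

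**Figure D4:**
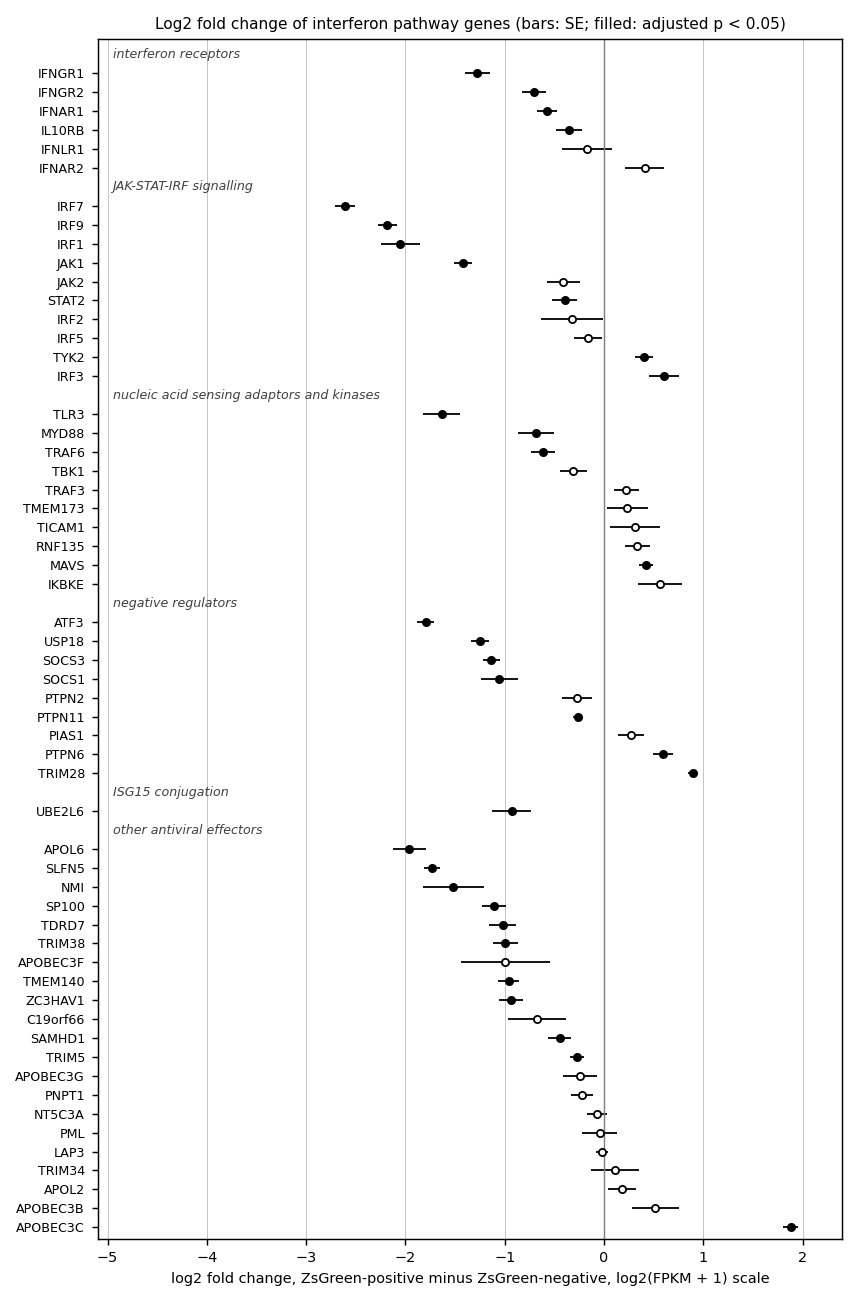
Log2 fold change, ZsGreen-positive minus ZsGreen-negative on the log2(FPKM + 1) scale, of 57 of the 59 tested interferon pathway genes outside the 51, by list, with bars for the SE and filled points for an adjusted p below 0.05. IRF7 (-2.61) and IRF9 (-2.18) lie farthest to the left and APOBEC3C (1.88) farthest to the right.

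Transcription factors of the interferon response did not all go the same way. IRF7, IRF9, IRF1 and STAT2 were called lower, and IRF3 was called higher (log2 fold change 0.60, limma adjusted p = 0.0102). IRF2 and IRF5 did not pass (-0.32 and -0.16, limma adjusted p = 0.398 and 0.342). IRF7, which amplifies interferon production, had 2.20, 2.59 and 2.76 FPKM in the ZsGreen-positive libraries and 21.7, 20.1 and 19.6 FPKM in the ZsGreen-negative libraries (log2 fold change -2.61 with an SE of 0.10, limma adjusted p = 2.12e-06). IRF9, the DNA-binding part of the ISRE complex, had 10.3, 8.45 and 8.37 FPKM in the ZsGreen-positive libraries and 42.9, 47.4 and 43.3 FPKM in the ZsGreen-negative libraries (log2 fold change -2.18 with an SE of 0.0968, limma adjusted p = 3.29e-06). Both were far lower in each ZsGreen-positive library, as was IRF1, another such factor (log2 fold change -2.05). STAT2, a partner of IRF9, had a log2 fold change of -0.40 (limma adjusted p = 0.0305), and 0.0064 rescaled without small RNA genes. Without ZsGreen-positive replicate 1, 2 or 3 its value was -0.50, -0.26 and -0.43. In those 3 fits it passed, and with each ZsGreen-negative library left out in turn it did not (limma adjusted p = 0.107, 0.0642 and 0.0778). Nor did it pass with no filter (limma adjusted p = 0.0553) or rescaled to a sum of 1000000 (limma adjusted p = 0.0972). The limma adjusted p of STAT2 ranged from 0.0138 to 0.965 over its alternatives. With replicate 1 alone as the ZsGreen-positive group its value was -0.20. USP18, a feedback inhibitor that removes ISG15 from proteins, had 5.22, 5.97 and 5.52 FPKM in the ZsGreen-positive libraries and 15.7, 14.1 and 14.0 FPKM in the ZsGreen-negative libraries (log2 fold change -1.25).

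Of the 6 receptor genes 4 were lower. IFNGR1 and IFNGR2, the chains of the interferon gamma receptor, had log2 fold changes of -1.28 and -0.71. IL10RB, a shared receptor chain named after its values were seen, had -0.35 (limma adjusted p = 0.0457) and did not pass under several alternatives, among them those without ZsGreen-positive replicate 1 or 2 or any 1 ZsGreen-negative library (range over its alternatives 0.00733 to 0.807). IFNGR2 was at -0.29 rescaled without small RNA genes (limma adjusted p = 0.0424, range over its alternatives 0.000499 to 0.0424). UBE2L6, the conjugating enzyme of ISG15, averaged 19.8 ± 6.21 FPKM in ZsGreen-positive and 37.5 ± 2.37 FPKM in ZsGreen-negative cells. TLR3, an endosomal sensor of double-stranded RNA, had a log2 fold change of -1.63, the adaptor MYD88 -0.68, the stress factor ATF3 -1.80 and APOL6 -1.96. APOL6 was tested only through its ZsGreen-negative level, and with pseudocounts of 0.1 and 5 it was at -3.89 and -0.72. MYD88 did not pass without ZsGreen-negative replicate 1 (limma adjusted p = 0.0506), without replicate 2 (limma adjusted p = 0.0549) or rescaled without small RNA genes (limma adjusted p = 0.179), with a range over its alternatives of 0.00101 to 0.179. APOBEC3C, a cytidine deaminase, ran against the 51 genes with 40.2 ± 2.33 FPKM in ZsGreen-positive and 10.2 ± 0.435 FPKM in ZsGreen-negative cells (SD, n = 3 each), a log2 fold change of 1.88. JAK1, IFNAR1 and IFNAR2 are named after their values were seen. JAK1, the receptor kinase, had a log2 fold change of -1.42, and the chains of the type I receptor had -0.57 for IFNAR1 and 0.41 for IFNAR2, the second of which did not pass (limma adjusted p = 0.109). Rescaled without small RNA genes, IFNAR1 did not pass (-0.19, limma adjusted p = 0.156) and IFNAR2 was called higher (0.71, limma adjusted p = 0.015). Over their alternatives the largest limma adjusted p was 0.156 for IFNAR1 and 0.291 for IFNAR2. IFNAR2 was also called higher without ZsGreen-positive replicate 3 (0.58, limma adjusted p = 0.0185). Without ZsGreen-positive replicate 1 it was at 0.26 and did not pass (limma adjusted p = 0.236). With replicate 1 alone as the ZsGreen-positive group it was at 0.70.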

How the data were processed

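The 6 tables deposited by the authors hold 1 FPKM value per gene symbol and library. Per the labels' protocols, TRIzol and a column kit gave the RNA, and a stranded kit for mRNA the libraries. The submitters' processing notes name hg19, Cuffdiff 2.2.1, TopHat2 2.1.1, SAMtools 0.1.18 and Bowtie2 2.2.8. The sources used here do not give the annotation, scaling or strand setting. No count model was run. Genes with a mean of at least 1 FPKM were tested in R 4.3.3 with limma 3.58.1 (two-sided, lmFit and then eBayes with trend, 4 residual and 3.22 prior degrees of freedom) on log2(FPKM + 1), with Benjamini-Hochberg adjustment over 12213 genes and a threshold of 0.05. The procedure was tested on simulated data. The simulation gave both groups the same spread, so the larger spread among ZsGreen-positive libraries was not part of that test. Depth was estimated from the value of a single fragment in genes that have a single annotated transcript, 1000 nt or longer. Members, roles, pathway and marker lists were chosen with earlier results of these data known. In each role, the 2 called members with the largest difference and every tested member that did not pass are given in full. Of each pathway list, the same 2 (where none passed, the 2 highest) and STAT2, IRF1, IRF7, IRF9 and USP18 are named, apart from a result that is not reported here.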

Additional observations from a re-analysis of the deposited data

How the results depend on the processing

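The 37 members called lower were all called lower under 13 of 15 alternatives, and the exceptions were few: GBP2, HERC6, CMPK2 and EPSTI1 were not tested at a minimum mean of 5 FPKM, and ADAR and HERC6 did not pass rescaled without small RNA genes. No member was called higher under any alternative. Of the 37, the log2 fold change moved by over 1.5 times for 11 with a pseudocount of 5, 3 with one of 0.1, 10 rescaled without small RNA genes, 1 rescaled to 1000000, 5 when ZsGreen-positive replicate 1 stood alone (IFITM3, BST2, HERC5, CMPK2 and IFI27, all smaller) and 0 with any 1 library left out. The median log2 fold change of tested members was -1.53 as reported. It was -1.83 with a pseudocount of 0.1, -0.96 with one of 5, -1.31 with no filter and -1.64 at a minimum of 5 FPKM. Rescaled to a sum of 1000000 it was -1.21, and -1.16 with small RNA genes left out of the sum. When ZsGreen-positive replicate 1 stood alone for its group it was -1.68. That fit, 1 of the 15 alternatives, takes its spread from the ZsGreen-negative libraries alone. Over all tested genes their median SD was 0.0683, against 0.19 in the ZsGreen-positive libraries. Calls in that fit thus leave out the larger spread. Pathway genes called higher numbered 16 in the rescaling without small RNA genes, where 46.4% of all genes were called higher. Among the members and the pathway genes named here, values that turned direction were of genes not called or barely called. The other pathway genes were not checked for such a turn. IFITM2 turned to 0.10 rescaled to 1000000, 0.35 without small RNA genes, 0.0020 without ZsGreen-positive replicate 1 and 0.060 without replicate 3. Without small RNA genes STAT2 was at 0.0064, IFNLR1 at 0.15 and IL10RB at 0.043. With quantile normalisation TRIM14 was at -0.032. TRIM14 was also at -0.16 without ZsGreen-positive replicate 2, -0.00057 without ZsGreen-negative replicate 3 and -0.037 with ZsGreen-positive replicate 1 alone. MX1 was at -0.026 and IFNLR1 at 0.091 without ZsGreen-positive replicate 3, and IFNLR1 at 0.33 with ZsGreen-positive replicate 1 alone. With 1 library left out, IFITM2 ranged from -0.27 to 0.060, TRIM22 from -0.54 to -0.093, MX1 from -0.026 to 0.23, TRIM14 from -0.16 to 0.22 and IFNLR1 from -0.42 to 0.091. The cause was not tested. With 1 library left out, the genes called ranged over 5964 to 7579, members lower over 37 to 37, their median over -1.55 to -1.50, and pathway genes over 24 to 32 lower and 6 to 7 higher. Replicate numbers did not pair the libraries (correlations of -0.021, -0.030 and -0.021 between deviations of same-numbered libraries), and with the replicate number as a block 6915 genes, 37 members and 30 lower and 6 higher pathway genes were called. Depth limits the members near 0, whose values rest on few fragments.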
